A study of Mus musculus with 6 samples.

Results

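The integrated stress response genes examined here are Atf4, the transcription factor at the centre of the response, and 9 genes known as its targets or as part of its circuit, namely Atf5, Atf3, Ddit3, Trib3, Chac1, Asns, Nupr1, Sesn2 and Ddit4. They were taken by name from the gene table, 10 genes of 21936 listed, and all 10 passed the filter on low counts that left 11809 genes for testing. Polyadenylated RNA was sequenced from PAM212, a mouse keratinocyte line by its label, kept in DMEM plus 10% serum. One group of 3 libraries came from PAM212 cells infected with a lentivirus that carries the mouse miR-28-3p gene, and the other group of 3 libraries came from PAM212 cells labelled as not treated. The libraries labelled as not treated have titles that begin with NC. The labels do not tell whether the control cells carried an empty lentivirus, or whether the infected cells are a pool or 1 clone. They also do not tell whether libraries with the same treatment came from separate cultures. P-values therefore measure only the spread between these libraries, which may be technical. The title of the series speaks of keratinocytes, but melanocytes are what its design text mentions.

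In the integrated stress response, kinases that sense unfolded protein, lack of amino acids, double-stranded RNA or lack of haem phosphorylate the translation factor eIF2alpha. This lowers protein synthesis as a whole but favours translation of a few messages, those of Atf4 and Atf5 among them, through short upstream reading frames. ATF4 protein then switches on genes for amino acid supply, redox balance and, under lasting stress, cell death. Since ATF4 is controlled largely at translation, its transcript level and its activity need not move together.

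The sequences that bear on these genes are the overexpressed microRNA, the 1 matching site it has among the 10 genes, and the ATF4-type elements in their promoters. Mature mouse miR-28a-3p and the product of the other arm of its hairpin, both from RefSeq on GRCm38.p6, are shown 5′ to 3′ with the seed, bases 2 to 8, in capitals. They lie on the plus strand at chr16:24827908-24827929 and chr16:24827868-24827889.
mmu-miR-28a-3p: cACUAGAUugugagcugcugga
mmu-miR-28a-5p: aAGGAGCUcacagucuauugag
The 7 bases that pair with the miR-28a-3p seed, ATCTAGT, were looked for in the longest annotated 3′ UTR of each gene. Atf5 holds 1 such site, at position 533 of the 594 bases of Atf5-201, and it is shown with 10 bases on either side and the site in capitals.
Atf5 site: gaagggttgcATCTAGTggaggctgat
The other 9 genes hold none, so 1 of 10 has a match, beside 6.72% of the 11688 tested genes with such a UTR. The site of the 5p arm, AGCTCCT, stands in 1 of the 10 as well, Chac1, beside 17.9% of tested genes. A match is a description of the letters and does not show that the microRNA acts there.

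ATF4 binds DNA with C/EBP partners at composite elements with the core TGATGNAA. RefSeq promoters, from 250 bases before to 50 bases after the start that RefSeq gives each gene, were searched for these letters on both strands. The core stands in 3.97% of 32851 promoters and in 5 of the 11 promoters of the 10 genes, those of Atf3, Chac1, Asns, Nupr1 and Trib3. The Trib3 match lies after the RefSeq start, though 7 bases before the outermost start in the gene table, and is not shown. ATF4 can bind elements of this kind, so the matches of the other 4 are shown on the strand of the gene. They have the core or its reverse complement TTNCATCA in capitals. They lie on GRCm38.p6 at chr1:191183410-191183469 (minus strand, Atf3), chr2:119351023-119351082 (plus, Chac1), chr6:7693210-7693258 (minus, Asns) and chr7:126625547-126625606 (minus, Nupr1).
Atf3: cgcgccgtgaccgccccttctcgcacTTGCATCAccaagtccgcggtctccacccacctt
Chac1: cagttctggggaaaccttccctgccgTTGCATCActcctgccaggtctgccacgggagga
Asns: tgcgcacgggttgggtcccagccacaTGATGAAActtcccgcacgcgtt
Nupr1: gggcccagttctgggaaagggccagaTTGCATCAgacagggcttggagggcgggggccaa
The match ends 103, 186, 16 and 103 bases before the RefSeq start in Atf3, Chac1, Asns and Nupr1. These starts are not those of the gene extents printed further on, which come from the gene table and reach to its outermost transcript. The RefSeq start lies 34706 bases inside the listed extent of Atf3, 5391 inside that of Nupr1, 45 inside that of Asns and 13 inside that of Chac1. Against the listed extents, the matches of Atf3, Nupr1 and Asns therefore fall inside the gene and that of Chac1 173 bases before it. A match is a description of the letters and does not show that ATF4 binds there. No match in a window says only that these letters are not in it.

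All 10 genes were lower with miR-28-3p overexpression, from 1.39-fold for Atf4 to 16.4-fold for Trib3. Trib3, Atf5, Ddit3, Nupr1 and Ddit4 fell by more than 7-fold, while Atf4 itself and Asns fell by less than 1.6-fold. By edgeR's quasi-likelihood test with Benjamini-Hochberg adjustment over all genes tested, 10 of 10 were called lower at an adjusted p under 0.05, where 43.9% of all tested genes were called lower and 42.1% higher. In all 10 every overexpression library lay below every control library, as in 43.8% of tested genes, while 42.2% lay above. Against a 1.5-fold minimum change, 9 of 10 were called lower, all but Atf4, beside 27.0% of tested genes lower and 23.4% higher. The median log2 fold change of the 10 was -2.32, beside -0.03 over all tested genes. The 10 genes were chosen with earlier results of these data known, so these counts are a description and no independent support. In bulk RNA, fewer cells that make a transcript and less of it per cell cannot be told apart.

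**Figure D1:**
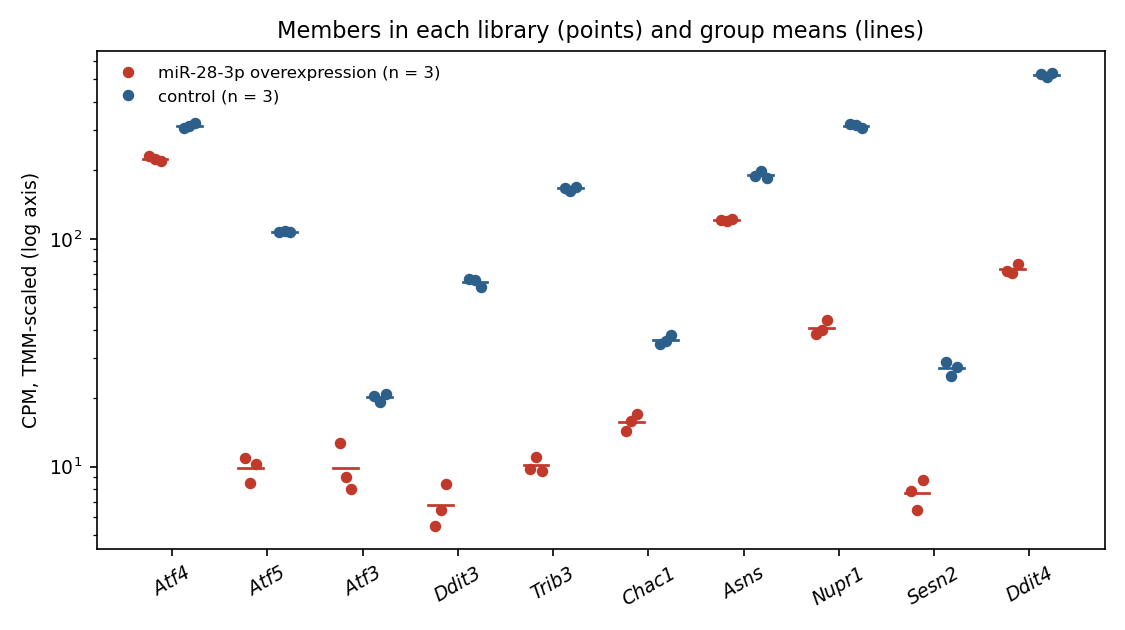
Level of each of the 10 genes in each library, in CPM (a gene's share of its library's counts, TMM-scaled) on a log axis, with 3 overexpression libraries (red) left of 3 control libraries (blue) and lines at group means. In every gene the red points lie below the blue ones. The lines at group means are closest for Atf4 and Asns and farthest apart for Trib3.

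Depth was alike in both groups, with 14309898 to 16383374 counted reads in the overexpression libraries and 14706283 to 15385151 in the control libraries, so that 3 counts in a library equal 0.188 to 0.216 CPM, the TMM-scaled share of a library's counts. The epithelial genes Cdh1, Itga6 and Lamb3 averaged 532, 329 and 283 CPM with overexpression and 382, 139 and 197 CPM in controls, but the defining basal keratin Krt5 had 0 counts in all 6 libraries and Trp63, the keratinocyte lineage factor, averaged 0.11 CPM with overexpression and 1.13 CPM in controls. Krt15, another basal keratin, had 0 counts in each overexpression library and 21.4 ± 0.959 CPM in controls (SD, n = 3). The summed level of 12 keratinocyte markers was 1479 to 1517 CPM with overexpression and 1202 to 1230 CPM in controls, although 6 of the 11 tested markers were called lower and 5 higher (median log2 fold change -0.37), and 3 lower and 1 higher beyond 1.5-fold. That of 8 melanocyte markers, with Tyr and Kit at 0, was 7.33 to 8.22 CPM with overexpression and 8.05 to 9.78 CPM in controls. That of 8 fibroblast markers, with Lum at 0, was 55.6 to 59.8 CPM with overexpression and 82.5 to 84.6 CPM in controls. Of the 3 tested fibroblast markers 2 were called lower and 1 higher, with log2 fold changes from -3.68 to 0.23. The part of these shifts in the stress gene differences was not tested.

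Atf4 (ENSMUSG00000042406, chromosome 15, 80255184 to 80257541, plus strand, GRCm38) encodes the activator on which the response converges. It had 232, 223 and 218 CPM in the overexpression libraries, against 305, 313 and 321 CPM in the control libraries. All overexpression values lie under all control values, by a margin that exceeds the spread within either group. The log2 fold change was -0.48 ± 0.03 (SE from the edgeR F statistic, n = 3 against 3, edgeR adjusted p = 1.59e-23). Atf4 is the 1 member whose call depended on the processing. It was not called against a 1.5-fold minimum (edgeR adjusted p = 1), and with the trend on gene length removed its log2 fold change was -0.04 (edgeR adjusted p = 0.156).

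Gene length moved with the fold changes of these libraries as a whole, and all 10 genes are shorter than the median tested gene. The deposited lengths of the 10 run from 1637 to 3475 bases, beside a median of 4526 bases. With the tested genes cut into 10 bins by length, the bin of the shortest genes had a median log2 fold change of -0.65 and that of the longest 0.57. Relative to the median of its own bin Atf4 differed by -0.02, whereas Trib3, Atf5 and Ddit3 differed by -3.58, -2.98 and -2.59 on the log2 scale.

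With the length trend removed the other 9 genes were still called lower, the smallest change being that of Asns at -0.30 (edgeR adjusted p = 3.95e-12). Trib3, Atf5, Ddit3, Nupr1 and Ddit4 then had log2 fold changes of -3.55, -2.92, -2.67, -2.54 and -2.27. The changes of Chac1 and Atf3 shrank to -0.60 and -0.55, and that of Sesn2 to -1.61. What lies behind the length trend was not tested.

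**Figure D2:**
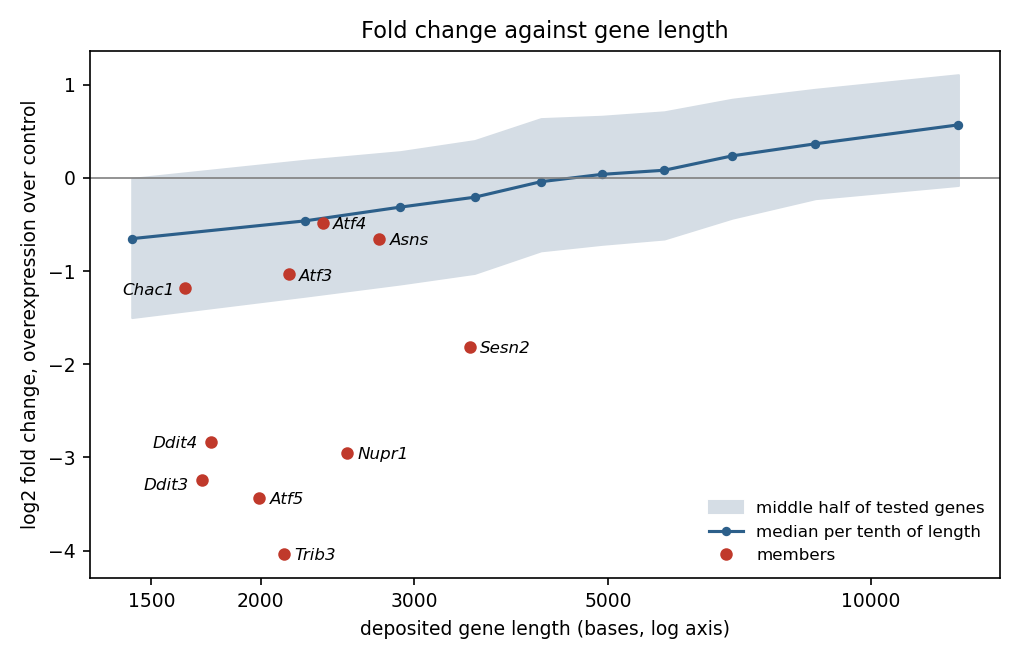
Log2 fold change (overexpression over control) against deposited gene length in bases on a log axis, with the median (blue) and interquartile range (grey) of tested genes in each of 10 length bins and the 10 genes in red. Atf4 lies on the median line and Asns, Atf3 and Chac1 inside the grey band, while the other 6, from Sesn2 at -1.81 to Trib3 at -4.04, lie well under it.

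The remaining transcription factors of the circuit changed far more than Atf4, apart from Atf3. Atf5 (ENSMUSG00000038539, chromosome 7, 44812256 to 44816658, minus strand), a relative of ATF4 that is translated in the same stress-dependent way, had 11, 8.51 and 10.3 CPM with overexpression, against 107, 108 and 107 CPM in controls. The groups are far apart and the control values nearly coincide. Atf5 thus had a log2 fold change of -3.44 ± 0.07 (n = 3 against 3, edgeR adjusted p = 1.34e-47), and 3.08% of tested genes had a lower one. Atf5 is the gene with the miR-28a-3p seed site shown above, and the part of that site in its level was not tested.

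Ddit3 (ENSMUSG00000025408, chromosome 10, 127290774 to 127296288, plus strand) encodes CHOP, the factor linked to cell death under lasting stress. It had 5.48, 6.47 and 8.4 CPM with overexpression, against 66.4, 66.1 and 61.4 CPM in controls. Even the highest overexpression library stood far under the lowest control library, although the 3 overexpression values differ among themselves more than the control values do in proportion. This gave a log2 fold change of -3.24 ± 0.09 (n = 3 against 3, edgeR adjusted p = 1.74e-40). The table holds another row named Ddit3 (ENSMUSG00000116429), a model of 105 bases inside the first one on the same strand, with 0 counts in every library.

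Atf3 (ENSMUSG00000026628, chromosome 1, 191170296 to 191218039, minus strand), an early factor that many stresses induce, had 12.8, 9.04 and 7.96 CPM with overexpression, against 20.4, 19.3 and 20.9 CPM in controls. The overexpression libraries are lower without overlap, but replicate 1 stands above the other two and the group is the most scattered of the 10. Its log2 fold change was -1.03 ± 0.11 (n = 3 against 3, edgeR adjusted p = 2.99e-12), which became -1.24 without overexpression replicate 1 (edgeR adjusted p = 1.11e-13).

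Among the effectors, the regulators of stress signalling showed the widest differences. Trib3 (ENSMUSG00000032715, chromosome 2, 152337422 to 152344032, minus strand), a pseudokinase that restrains ATF4, CHOP and AKT signalling, had 9.81, 11.1 and 9.54 CPM with overexpression, against 167, 163 and 169 CPM in controls. The libraries of each group lie close together, with a wide empty range between the groups. Its log2 fold change of -4.04 ± 0.06 (n = 3 against 3, edgeR adjusted p = 1.72e-54) was the lowest of the 10, and 234 of the 11809 tested genes had a lower one. Nupr1 (ENSMUSG00000030717, chromosome 7, 126623249 to 126630861, minus strand), a small stress-induced chromatin protein, had 38.1, 39.7 and 44 CPM with overexpression, against 319, 317 and 307 CPM in controls. The groups are again far apart and do not overlap. Its log2 fold change was -2.95 ± 0.04 (n = 3 against 3, edgeR adjusted p = 9.55e-57).

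Ddit4 and Sesn2 encode brakes on the growth kinase complex mTORC1. Ddit4 (ENSMUSG00000020108, chromosome 10, 59949669 to 59951834, minus strand), also called REDD1 and also induced by hypoxia and glucocorticoids, had 72.1, 70.6 and 77.4 CPM with overexpression, against 526, 513 and 532 CPM in controls. It was the most abundant of the 10 in controls, and its overexpression values lie far below with no overlap. This amounts to a log2 fold change of -2.83 ± 0.03 (n = 3 against 3, edgeR adjusted p = 3.51e-61). Sesn2 (ENSMUSG00000028893, chromosome 4, 132492032 to 132510501, minus strand), a leucine sensor that is also a p53 target, had 7.86, 6.47 and 8.78 CPM with overexpression, against 28.9, 24.9 and 27.5 CPM in controls. The groups do not overlap, and Sesn2 is the least abundant of the 10 per length in both. Sesn2 had a log2 fold change of -1.81 ± 0.11 (n = 3 against 3, edgeR adjusted p = 1.28e-23).

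The metabolic enzymes of the set, Chac1 and Asns, moved less than these. Chac1 (ENSMUSG00000027313, chromosome 2, 119351229 to 119354381, plus strand), which breaks down glutathione, had 14.3, 15.8 and 17.1 CPM with overexpression, against 34.4, 35.6 and 37.9 CPM in controls. The highest overexpression value lies well under the lowest control value. Chac1 had a log2 fold change of -1.19 ± 0.08 (n = 3 against 3, edgeR adjusted p = 2.59e-20). Asns (ENSMUSG00000029752, chromosome 6, 7675169 to 7693254, minus strand), the asparagine synthetase and a textbook ATF4 target, had 120, 120 and 122 CPM with overexpression, against 188, 198 and 185 CPM in controls. Its groups are clearly apart, but its fold change was smaller than that of every other target. The log2 fold change was -0.66 ± 0.03 (n = 3 against 3, edgeR adjusted p = 8.49e-26), and 29.4% of tested genes had a lower one.

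**Figure D3:**
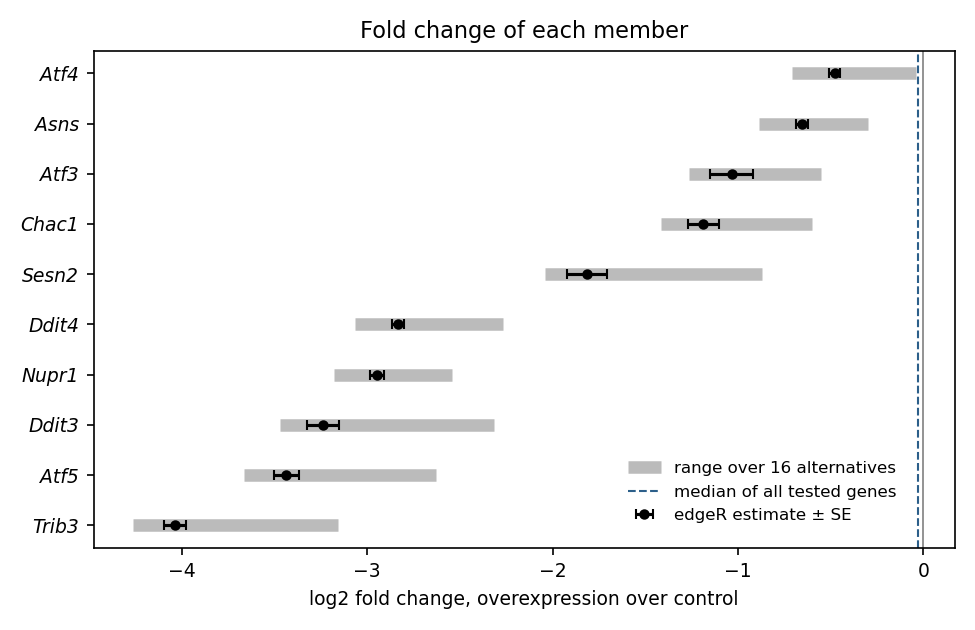
Log2 fold change (overexpression over control) of each gene with its SE (black) and the range over 16 alternative settings (grey bar), and the median of all tested genes (dashed line at -0.03). The bars of all 10 genes stay below 0, that of Atf4 reaching -0.04, and the 5 genes from Ddit4 down stay under -2.

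The authors' deposited table of differential expression gives all 10 a negative log2 fold change as well, from -4.03 for Trib3 to -0.47 for Atf4, with 3.71e-11 for Atf3 as the largest adjusted p. That table does not name its groups A and B. The sign of its B over A value was that of overexpression over control counts in 13294 of the 13885 genes compared.

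Exons of 2 members overlap other genes on the opposite strand, and the sources do not say whether the counting used strand. Ddit3 shares 68 of its 1713 exon bases with Mars, and Atf5 shares 82 of its 1993 exon bases with Nup62 and with Il4i1. These shares are 3.97% and 4.11% of the exon bases. Reads from these stretches may belong to either gene or may have been left out. The other Ddit3 model shares 105 of the 1713 Ddit3 exon bases (6.13%) on the same strand. Reads there may have been left out with or without use of strand, so the 0 counts of that model do not show that it is silent.

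Expressed per length, the order of the 10 genes differed between the groups. In FPKM, the level per gene length and library size as deposited by the authors, Atf4 led in the overexpression libraries at 92.1 ± 2.87, followed by Asns at 42.7 ± 0.303 and Ddit4 at 40.5 ± 1.94 (mean ± SD, n = 3 libraries). The values of Asns and Ddit4 overlap, so these 2 cannot be ordered. Below them came Nupr1 at 15.6 ± 1.16 FPKM and Chac1 at 9.31 ± 0.788 FPKM, each apart from its neighbours, and Sesn2 was last at 2.15 ± 0.322 FPKM. The control libraries had Ddit4 first at 308 ± 5.69 FPKM, then Atf4 at 137 ± 3.22 and Nupr1 at 129 ± 2.82 FPKM, with Asns at 71.8 ± 2.54, Chac1 at 22.7 ± 1.07 and Sesn2 at 8.05 ± 0.611 FPKM (SD, n = 3).

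Atf5, Trib3, Atf3 and Ddit3 lay together with overexpression but apart in controls. With overexpression they had 4.82 ± 0.615, 4.62 ± 0.379, 4.46 ± 1.14 and 3.83 ± 0.833 FPKM, and each overlaps its neighbour in the order. In controls the same genes had 55.6 ± 0.456, 80.9 ± 1.68, 9.67 ± 0.404 and 38.9 ± 1.75 FPKM (SD, n = 3). In controls no gene overlapped the next one in the order of FPKM levels. Together the 10 genes took 0.0507, 0.0494 and 0.0506% of counts in the overexpression libraries, against 0.182, 0.181 and 0.182% in the control libraries. Atf4 made up 41.7 to 44.3% of that sum with overexpression and 17.3 to 18.1% in controls, while Ddit4 made up 13.8 to 14.8% with overexpression and 29.2 to 30.1% in controls.

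Set against Atf4 in the same library, every target was lower with overexpression. The ratio of Trib3 to Atf4 in FPKM was 0.047, 0.0551 and 0.0484 with overexpression, against 0.608, 0.577 and 0.586 in controls, so that it was 11.8-fold lower. The ratio of Ddit4 to Atf4 was 0.418, 0.425 and 0.476 with overexpression, against 2.32, 2.2 and 2.23 in controls. Ddit4 was thus above Atf4 in each control library and below it in each overexpression library. The ratio of Asns to Atf4 was 0.448, 0.463 and 0.481 with overexpression, against 0.531, 0.545 and 0.497 in controls. This was the narrowest gap of the 9 ratios, at 1.13-fold.

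The groups did not overlap in any of the 9 ratios. Each gave an exact two-sided permutation p of 0.1 (n = 3 against 3), also after Benjamini-Hochberg adjustment over the 9, which is the smallest p that 3 against 3 can give and cannot pass 0.05. A ratio within a library does not depend on its scaling, but a difference in length between the 2 genes enters it where the length trend applies. Asns, Nupr1 and Sesn2 are longer than Atf4, and the other 6 targets are shorter.

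**Figure D4:**
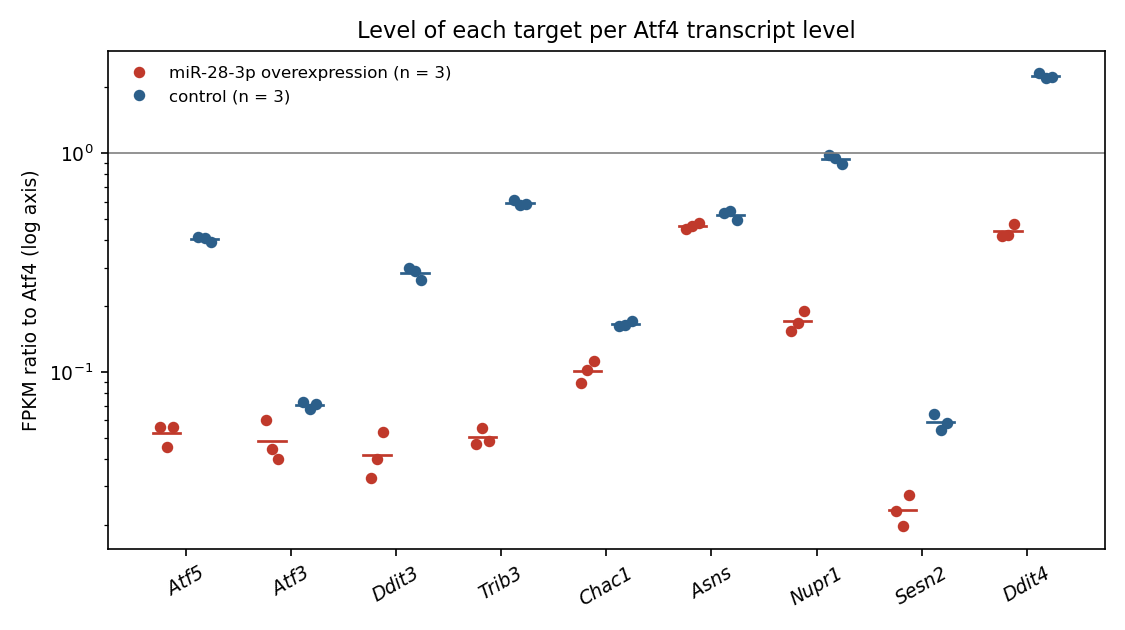
FPKM of each target divided by that of Atf4 in the same library, on a log axis, with 3 overexpression libraries (red) left of 3 control libraries (blue) and lines at group means. Every red set lies below its blue set, by 1.13-fold for Asns and 11.8-fold for Trib3, and Ddit4 crosses the line at 1.

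The lists of genes around the response are read against the shares of all tested genes, 42.1% called higher and 43.9% called lower, and a list near these shares says nothing particular about its genes. The lists were chosen with earlier results of these data known, so a list apart from these shares is a description and no independent support. The list of eIF2alpha control, with the kinases, the phosphatase subunits and the exchange factor eIF2B, had 10 of 18 tested genes called higher and 6 lower (median log2 fold change 0.53, beside -0.03 over all tested genes). Upper quartile scaling gave 10 higher and 8 lower (median 0.30, beside -0.26 over all tested genes). Removing the length trend gave 11 higher and 5 lower (median 0.48). Gcn1, the ribosome-bound activator of the amino acid sensor GCN2, had 446 ± 7.29 CPM with overexpression and 179 ± 4.29 CPM in controls (SD, n = 3; log2 fold change 1.32, edgeR adjusted p = 3.98e-47). Gcn1 is 17815 bases long, and the bin of the longest genes had a median log2 fold change of 0.57. The eIF2 subunit genes Eif2s1 and Eif2s3x rose, with log2 fold changes of 1.15 and 2.12. Eif2s2, also an eIF2 subunit gene and named after its value was seen, fell slightly with -0.16 (edgeR adjusted p = 2.5e-06). Ppp1r15b, the constitutive partner of the eIF2alpha phosphatase, rose by 1.02 on the log2 scale.

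Ppp1r15a, the stress-induced partner and itself an ATF4 and CHOP target, went the other way, with 15.7 ± 1.75 CPM with overexpression and 34.6 ± 1.03 CPM in controls (SD, n = 3; log2 fold change -1.14, edgeR adjusted p = 3.44e-19). It and the kinases were named after their values were seen. The kinase genes differed in direction: Eif2ak4, which encodes GCN2, rose with a log2 fold change of 0.97, and Eif2ak1, which encodes the haem-regulated kinase, with 0.62. Eif2ak3, which encodes the endoplasmic reticulum kinase PERK, fell with -0.58. Eif2ak2, which encodes the double-stranded RNA sensor PKR, had 0.06 and was not called (edgeR adjusted p = 0.274).

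Of 13 tested genes in the list of further ATF4 and CHOP targets, 11 were called lower and 1 higher, beside 43.9% and 42.1% of all tested genes, with a median log2 fold change of -1.34. Beyond 1.5-fold 9 of the 13 were lower, beside 27.0% of all tested genes, and of the other 3 listed genes Fgf21, Gdf15 and Adm2 none passed the filter. Gadd45a, a growth arrest gene that p53 also induces, had 5.55 ± 0.415 CPM with overexpression and 115 ± 4.76 CPM in controls (SD, n = 3; log2 fold change -4.37, edgeR adjusted p = 4.52e-51). Vegfa, the angiogenic factor, fell by 2.27 on the log2 scale. Sqstm1, the autophagy receptor, fell to 461 ± 13.6 CPM with overexpression, against 1620 ± 16.3 CPM in controls, and Map1lc3b, of the autophagosome, fell by 1.56 on the log2 scale. The 1 gene called higher was the death receptor gene Tnfrsf10b, named after its value was seen, with a log2 fold change of 0.86 (edgeR adjusted p = 2.2e-19). Ppp1r15a and Jdp2 stand in this list and in another one as well.

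Among targets for amino acid synthesis, 4 of 11 tested genes were called higher and 5 lower (median -0.0046), near the shares of all tested genes (42.1% and 43.9%). The lower ones include Pck2, mitochondrial phosphoenolpyruvate carboxykinase, with 28.2 ± 1.55 CPM with overexpression and 120 ± 4.84 CPM in controls (SD, n = 3; log2 fold change -2.09, edgeR adjusted p = 7.34e-42), and Gpt2, an alanine aminotransferase, with -1.76. Pycr1, which makes proline, fell with -2.78, while Phgdh, the entry enzyme of serine synthesis, rose with 0.69. With upper quartile scaling, which moved the median of all tested genes by -0.23, 1 gene of this list was called higher and 6 lower, the calls on Psat1, Shmt2 and Mthfd2, named for that reason after their values were seen, being lost.

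For transport, 3 of 9 genes were called higher and 5 lower (median -1.004), beside 42.1% and 43.9% of all tested genes. Slc7a11, the cystine importer, had 11.4 ± 0.278 CPM with overexpression and 85.8 ± 3.09 CPM in controls (SD, n = 3; log2 fold change -2.91, edgeR adjusted p = 1.05e-43), and its partner chain Slc3a2 fell to 161 ± 3.87 CPM, against 323 ± 7.4 CPM in controls. Slc7a1, the arginine and lysine importer, and Slc38a2, a glutamine and alanine importer, rose with 1.16 and 0.84. Of 13 genes of tRNA charging and export, 7 were called higher and 4 lower (median 0.20), beside the same shares of all tested genes. With upper quartile scaling 6 were called in each direction (median -0.03). With the length trend removed 6 were called higher and 5 lower (median 0.0023). Sars, the seryl-tRNA synthetase, fell with -1.62 and Aars, the alanyl-tRNA synthetase, with -0.72, whereas Iars, the isoleucyl-tRNA synthetase, and Xpot, which exports tRNA, rose with 0.78 and 0.94.

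**Figure D5:**
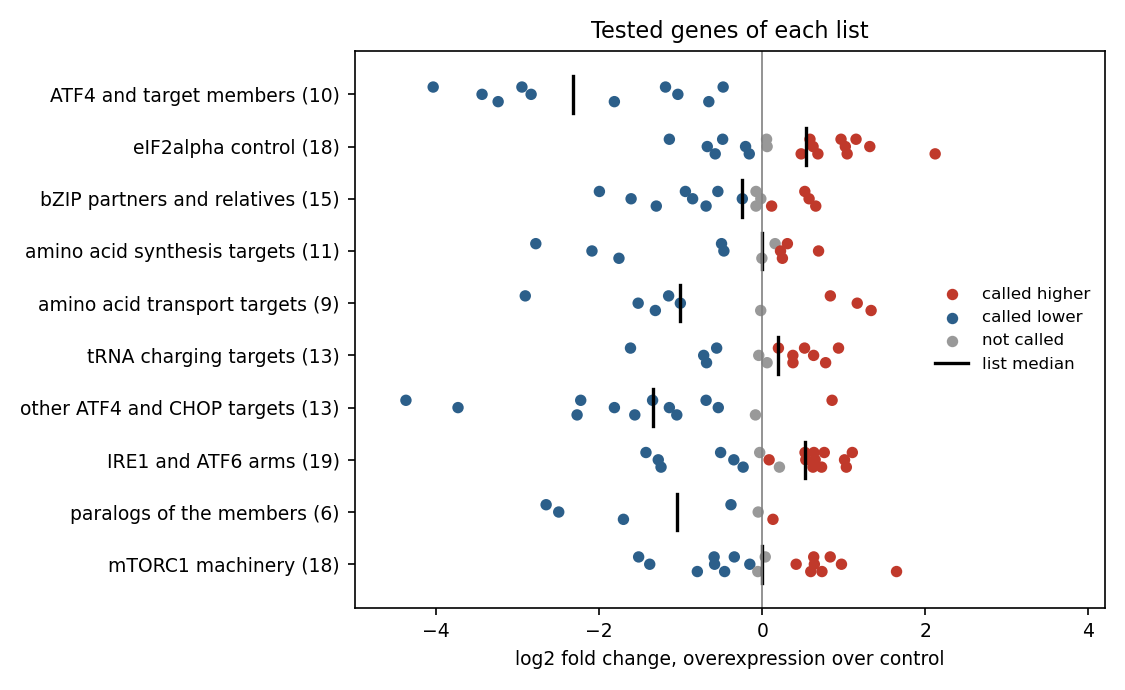
Log2 fold change (overexpression over control) of the tested genes of each list, with genes called higher in red, called lower in blue and not called in grey, and a black line at each list's median. All 10 stress response genes lie left of 0 with a median of -2.32, other ATF4 and CHOP targets have a median of -1.34, and the remaining lists hold genes on both sides.

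The arms of the unfolded protein response that run beside ATF4 had 11 of 19 genes called higher and 6 lower (median 0.52), beside 42.1% and 43.9% of all tested genes. With the length trend removed 14 were called higher and 5 lower. Upper quartile scaling gave 10 higher and 8 lower (median 0.29, beside -0.26 over all tested genes). The reticulum chaperone genes Hyou1, Hsp90b1 and Calr rose with log2 fold changes of 1.10, 1.03 and 0.63. Xbp1, the factor that the sensor IRE1 activates by splicing, fell with -1.24, from which nothing can be read about its spliced form. The calls on 2 genes of this list, named after their values were seen, turned: Hspa5 stood at 0.08 and at -0.15 with upper quartile scaling, and Pdia4 at -0.23 and at 0.19 with the length trend removed.

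Of 15 relatives of ATF4 and its C/EBP partners, 4 were called higher and 8 lower (median -0.24), beside 42.1% and 43.9% of all tested genes. With upper quartile scaling 3 were called higher and 11 lower. Junb, an AP-1 subunit, had 238 ± 7.43 CPM with overexpression and 587 ± 16.6 CPM in controls (SD, n = 3; log2 fold change -1.30, edgeR adjusted p = 2.54e-47). Nfe2l2, which encodes the antioxidant factor NRF2, and its relative Nfe2l1 fell with -0.94 and -0.85, and Creb1, the cAMP response factor, rose with 0.66. Cebpb, a C/EBP partner of ATF4 named after its values were seen, had 41.4, 45.7 and 41.2 CPM with overexpression, against 120, 180 and 212 CPM in controls. Its control libraries are widely scattered, yet all lie far above the overexpression libraries (log2 fold change -1.997 ± 0.28, edgeR adjusted p = 0.00215).

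Close paralogs of the 10 genes differed among themselves, with 1 of 6 tested called higher and 4 lower (median -1.04), beside 42.1% and 43.9% of all tested genes, and 0 and 5 with upper quartile scaling. Trib2, a pseudokinase related to Trib3, had 21 ± 0.972 CPM with overexpression and 118 ± 1.53 CPM in controls (SD, n = 3; log2 fold change -2.50, edgeR adjusted p = 4.43e-45). Trib1 had 75.5 ± 5.49 CPM with overexpression and 68.9 ± 3.9 CPM in controls (log2 fold change 0.13, edgeR adjusted p = 0.0166), a call that was lost without overexpression replicate 1 or control replicate 1 (edgeR adjusted p = 0.152 and 0.146) and in DESeq2 (adjusted p = 0.0515) and limma (adjusted p from 0.581 to 0.587). It stood at -0.10 with upper quartile scaling and at -0.03 with the length trend removed.

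Sesn3, a relative of Sesn2 and a known FOXO target, fell with a log2 fold change of -1.70, and Sesn1 with -0.38. Nupr1l, a relative of Nupr1, had 0.356 ± 0.0892 CPM with overexpression and 2.28 ± 0.749 CPM in controls (SD, n = 3; edgeR adjusted p = 4.33e-08), few counts in either group. Chac2, the constitutive relative of Chac1, had 11.6 ± 0.495 CPM with overexpression and 12 ± 1.07 CPM in controls (log2 fold change -0.05, edgeR adjusted p = 0.687). Ddit4l had 0 counts in every library.

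Genes of mTORC1, the complex that Ddit4 and Sesn2 restrain, and of its regulators had 8 of 18 called higher and 8 lower (median -0.0089), near the shares of all tested genes (42.1% and 43.9%). Mtor, the kinase, had 88.9 ± 2.11 CPM with overexpression and 45.3 ± 0.408 CPM in controls (SD, n = 3; log2 fold change 0.97, edgeR adjusted p = 4.5e-26), and Seh1l, a subunit of the GATOR2 complex that Sesn2 binds, rose with 0.73. Castor1, an arginine sensor that restrains mTORC1, and Nprl2, of the inhibitory GATOR1 complex, fell with -1.52 and -1.38.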

How the data were processed

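The authors deposited read counts per gene, which are whole numbers, and FPKM values, which per the file headers are scaled by gene length and library size. Their table of differential expression holds log2 fold changes and adjusted p-values (p-value adjustment not described), per the file headers. Deposited read statistics give the percent of useful reads (91.5 to 93.5%) and the raw Q30 percent. HISAT2, HTSeq and DESeq stand without versions or roles in the submitters' processing notes, which name build mm9. However, 21617 of 21817 genes matched by identifier, and all 10 genes described, have the coordinates of GENCODE M21 on GRCm38, used here.

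Counts were tested across all genes with edgeR 4.0.16 in R 4.3.3: filterByExpr (minimum count 10), TMM scaling and the robust quasi-likelihood F test, with a Benjamini-Hochberg adjusted p under 0.05 as the threshold. The SE is the log2 fold change divided by the square root of F. Alternatives were RLE and upper quartile scaling, no filter, a 1.5-fold minimum, a replicate block, a lowess trend on gene length removed per library, DESeq2 1.42.0, limma 3.58.1 on log2(FPKM + 1, 0.1 or 5), and leaving out each library. The edgeR steps were tested on simulated data in which only a small part of the genes changed and no length trend was set. That test does not show how the scaling or the length correction behave with changes as broad as those found here. Sequences came from RefSeq (GRCm38.p6) and GENCODE M21.

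The members and lists were chosen with earlier results of these data known. Named are all 10 members, all paralogs and up to 4 genes of each list with the smallest p, except where said otherwise. Floors of 3 counts cover counting error only. The levels of 1 further marker list are not reported here.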

Additional observations from a re-analysis of the deposited data

How the results depend on the processing

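Over 16 alternatives, 158 of the 160 values of the 10 genes kept their direction and their side of the threshold, the exceptions being Atf4 against a 1.5-fold minimum (edgeR adjusted p = 1) and with the length trend removed (log2 fold change -0.04, edgeR adjusted p = 0.156). Upper quartile scaling gave the lowest values, -4.27 for Trib3 and -0.71 for Atf4. For Sesn2 the highest value was -0.87. A 1.5-fold minimum left 5947 genes called, 2762 higher and 3185 lower, and 9 of the 10 genes. Leaving out 1 library at a time kept 10 of 10 called, with 10016 to 10118 genes called in all. With the replicate number as a block 10 of the 10 were called and 10116 genes in all, against 10159 without it. The labels do not say that a number marks a shared culture. The deviations of same-numbered libraries from their group means correlated at -0.0048, -0.0031 and -0.031. Such weak correlations show no sign of pairing, but they cannot tell whether same-numbered libraries shared a culture. Ddit3, Sesn2, Atf5, Trib3 and Atf3 rest on the fewest counts with overexpression, 76 to 177 reads in a library, which limits the precision of their folds.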
